A study of Mus musculus with 10 samples.

Results

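De novo lipogenesis and triglyceride synthesis were followed through 10 genes in primary mouse hepatocytes. The genes were chosen by name for their place in the pathway, with earlier results of these data known. They are the transcription factor genes Srebf1 and Mlxipl, the carbon and NADPH supply genes Acly and Me1, the fatty acid synthesis genes Acaca, Acacb, Fasn and Thrsp, and the glycerolipid synthesis genes Gpam and Dgat2. All 10 were listed in every library, among 18055 genes listed in any library, and all 10 passed the filter on low counts that left 14097 genes for testing. The hepatocytes came from C57BL/6 mice and were sequenced in 5 groups of 2 libraries. Vehicle hepatocytes received no free fatty acid (FFA). PA-treated hepatocytes received 200 μM palmitate and LA-treated hepatocytes 12 μM linoleate, both for 24 h, so the 2 FFAs were compared at unmatched doses. In the PA+NTP and LA+NTP groups, Neurotropin (NTP) at 0.4 NU/mL was given 1 h before the same FFA. NTP is a non-protein extract of inflamed rabbit skin that is used against chronic pain. There was no group with NTP and no FFA, so the NTP effect could be measured in FFA-treated hepatocytes only.

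In de novo lipogenesis, the hepatocyte turns citrate that has left the mitochondria into fatty acids. ATP citrate lyase frees acetyl-CoA, acetyl-CoA carboxylase makes malonyl-CoA, and fatty acid synthase joins these units into palmitate with NADPH that comes partly from malic enzyme. The fatty acids are then attached to glycerol 3-phosphate and end as triglyceride. Insulin drives the pathway through SREBP-1, the product of Srebf1, and carbohydrate drives it through ChREBP, the product of Mlxipl. Polyunsaturated fatty acids such as linoleate are known to lower SREBP-1 activity in liver.

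Levels and differences are given below. Levels are FPKM, the deposited read fragments scaled for transcript length and library size. Differences between groups are log2 fold changes with the standard error (SE) from edgeR's quasi-likelihood test on the expected counts of all 10 libraries, and each adjusted p is the Benjamini-Hochberg value over the 14097 genes. A gene is said to have risen or fallen where the adjusted p was under 0.05, and to have been called where the fold change was also at least 1.5. The libraries held 13142588 to 60046937 expected counts, and no library repeated its replicate within counting error. The p-values measure the spread between these libraries, which may be technical, since nothing says that they came from separate cultures. With 2 libraries against 2, an exact permutation test of a single gene cannot go below p = 0.333, and the calls draw on a spread estimated over all genes and groups.

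The libraries also followed the GC content of the transcripts, and this touched the lipogenic genes directly. For each library, the tested genes were set against their own 10-library means and these deviations were correlated with GC content. Spearman's rho was -0.473 and -0.484 with PA, -0.574 and -0.568 with LA, and 0.346 to 0.576 in the other 6 libraries. Srebf1 transcripts hold 58.4% GC, Fasn 57.9%, Acacb 56.7%, Mlxipl 56.6% and Dgat2 56.3%, between the 82.6th and the 91.1st percentile of the tested genes. The others were Thrsp at 54.0%, Acly at 52.1%, Gpam at 51.4%, Acaca at 49.2% and Me1, the lowest, at 46.2%, beside a median of 50.1% over all tested genes. GC-rich genes were thus on the whole lower in the FFA libraries. The member differences with the FFAs and with NTP are therefore given a second time, from a fit in which every library was first freed of its trend against GC content. Whether the trend came from the treatment or from the libraries cannot be told apart, since it ran with the groups.

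Promoter sequence shows which known control letters sit next to these genes. RefSeq windows of 250 bases before the transcript start (build GRCm38.p6) were given for 9 of the 10 genes, as 14 windows. They were searched on both strands for the E-box CACGTG, the core of a sterol regulatory element CACCCCAC, the NF-Y box CCAAT and the GC box GGGCGG. ChREBP and USF bind E-boxes, SREBPs bind sterol regulatory elements, NF-Y and Sp1 (at GC boxes) are known to act beside SREBPs. The following windows are shown because these 3 genes had the largest FFA or NTP differences and Me1 moved against them, with each match in capitals and each sequence ending at the base before the start.
Srebf1: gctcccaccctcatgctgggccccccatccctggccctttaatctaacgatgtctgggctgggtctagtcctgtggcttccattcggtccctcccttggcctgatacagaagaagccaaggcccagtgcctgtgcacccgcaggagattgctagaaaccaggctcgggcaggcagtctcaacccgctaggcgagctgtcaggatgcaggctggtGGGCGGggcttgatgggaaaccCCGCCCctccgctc
Fasn: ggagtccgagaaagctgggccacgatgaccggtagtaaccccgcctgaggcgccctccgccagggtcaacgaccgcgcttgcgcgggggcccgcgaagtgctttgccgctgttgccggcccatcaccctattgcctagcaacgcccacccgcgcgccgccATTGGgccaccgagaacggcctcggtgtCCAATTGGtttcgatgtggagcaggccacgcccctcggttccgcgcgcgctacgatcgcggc
Mlxipl: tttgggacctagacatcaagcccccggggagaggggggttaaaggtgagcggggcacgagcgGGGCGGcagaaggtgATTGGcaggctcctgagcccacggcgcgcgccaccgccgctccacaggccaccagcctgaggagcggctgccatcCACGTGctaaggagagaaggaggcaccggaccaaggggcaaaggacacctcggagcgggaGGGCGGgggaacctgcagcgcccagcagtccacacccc
Me1: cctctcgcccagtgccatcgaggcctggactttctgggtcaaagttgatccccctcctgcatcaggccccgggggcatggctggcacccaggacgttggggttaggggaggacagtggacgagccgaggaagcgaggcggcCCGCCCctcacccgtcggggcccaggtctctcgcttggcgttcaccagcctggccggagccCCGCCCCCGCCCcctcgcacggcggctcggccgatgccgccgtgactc

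The Srebf1 window, chr11:60220628-60220877 on the minus strand, lies before the only Srebf1 transcript in the deposited tables and holds 2 GC boxes, at -36 and -14. Because that is the only transcript, SREBP-1a and SREBP-1c mRNA were not separated in these values. The other Srebf1 windows lie before starts of no quantified transcript. Of these, chr11:60222582-60222831 holds an NF-Y box at -166. The window chr11:60210472-60210721 holds an NF-Y box at -30 and GC boxes at -65 and -6. The Fasn window, chr11:120824548-120824797 on the minus strand, holds 3 NF-Y boxes at -90, -62 and -59, the last 2 overlapping on opposite strands. The Mlxipl window, chr5:135089640-135089889 on the plus strand, lies before an upstream first exon and holds an E-box at -98, an NF-Y box at -173 and GC boxes at -188 and -38. The quantified Mlxipl transcript starts downstream, and the window before that start, chr5:135106641-135106890, had none of the 4 motifs. Me1 has 2 quantified starts, and the window before the upstream one, chr9:86695915-86696164 on the minus strand, holds 3 GC boxes. The window before the downstream start, chr9:86687278-86687527 on the same strand, holds no GC box and an NF-Y box at -208. Over the 14 windows, an NF-Y box was in 8 and a GC box in 6, beside 33.8% and 32.7% of all 32851 windows. An E-box was in 1 window (Mlxipl) and the sterol regulatory element core in 1 (Gpam), beside 6.0% and 2.6% of all windows. That Gpam window, chr19:55127239-55127488, lies before a start of no quantified transcript. The window before the quantified Gpam start, chr19:55099478-55099727, does not hold the core. These are letters in a window, not bound sites.

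In Vehicle hepatocytes the lipogenic genes spanned a wide range of levels. Me1 was highest at 107.3 FPKM (mean of 2 libraries), at the 95.2nd percentile of the tested genes. Gpam (38.39), Dgat2 (37.38), Acly (35.59) and Mlxipl (33.26) came next, and the libraries of Gpam and Dgat2 overlapped, so their order was not resolved. Srebf1 followed at 14.33, then Acaca at 10.82 and Fasn at 10.39, whose libraries did not overlap but lay close together. Thrsp (4.05) and Acacb (1.80) were lowest, at the 37.5th and 27.2nd percentiles. Across all 10 libraries, the highest level was 2.79 times the lowest for Mlxipl, 1.89 times for Fasn and 1.82 times for Srebf1, but 1.14 times for Gpam.

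**Figure D1:**
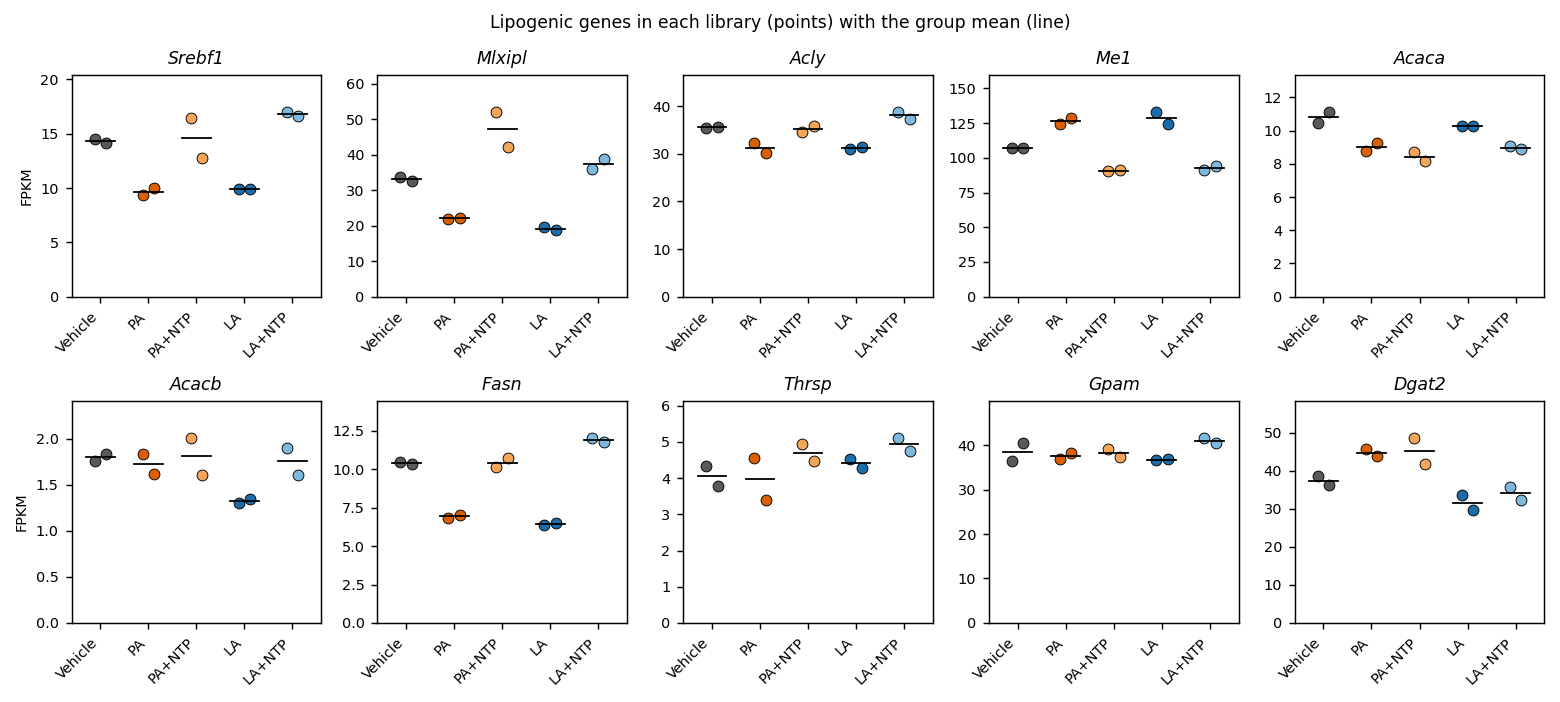
Level in FPKM (vertical axes, each from 0) of the 10 genes in every library (points) with the mean of each group of 2 (lines). Srebf1, Mlxipl and Fasn were lower in all 4 FFA libraries than in Vehicle and higher again with NTP, Me1 ran the other way, and Gpam stayed between 36.39 and 41.62 FPKM.

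Of the 10 genes, 5 fell and 2 rose with PA, and 4 fell and 1 rose with LA. Over all tested genes, 22% fell and 23.5% rose with PA, and 20.5% fell and 20.8% rose with LA. The members were chosen with earlier results known, so these shares were not tested against each other. No member was called with PA, where 14.9% of all genes were called. LA had 2 called members, Mlxipl and Fasn, where 10.6% of all genes were called. NTP treatment ran mostly the other way. In PA-treated hepatocytes 3 members rose and 1 fell with NTP, beside 21.7% and 23% of all genes, and 1 was called (Mlxipl), beside 13.9%. In LA-treated hepatocytes 5 rose and 2 fell with NTP, beside 25.9% and 25.6%, and 3 were called (Srebf1, Mlxipl and Fasn), beside 19.3%. The comparisons with and without NTP share the FFA libraries with the comparisons against Vehicle, so opposite signs in the pair are not independent of each other.

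With the GC trend removed, fewer members passed. PA then left 3 lower and 1 higher (31.5% of all genes passed in either direction), and LA left 2 lower and none higher (17.4%). NTP left 1 higher and 2 lower in PA-treated hepatocytes (27.2%), and 2 higher and 3 lower in LA-treated hepatocytes (27.8%). Mlxipl with NTP over PA was then the only called member difference in these 4 comparisons.

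Srebf1 encodes SREBP-1, the membrane-bound factor that is cleaved to switch on the genes of fatty acid synthesis. Its level was 14.54 and 14.12 FPKM in Vehicle, 9.36 and 10.00 with PA, and 9.93 and 9.88 with LA. With NTP it was 16.41 and 12.78 FPKM in PA-treated and 17.04 and 16.59 in LA-treated hepatocytes. Every FFA library was thus below every Vehicle and every NTP library. Srebf1 fell with PA by 0.53 ± 0.093 (log2 fold change ± SE, adjusted p = 0.000369) and with LA by 0.49 ± 0.091 (adjusted p = 0.000708). NTP raised it by a log2 fold change of 0.53 ± 0.092 over PA (adjusted p = 0.000329) and 0.72 ± 0.089 over LA (adjusted p = 1.23e-05). Without the PA+NTP replicate 2, which was the lower of that pair, the first of these became 0.67 and passed the fold threshold too, and without PA+NTP replicate 1 it was 0.36 and still passed the test. Srebf1 had the highest GC content of the members, and none of its 4 differences passed with the GC trend removed. They were then -0.14 with PA (adjusted p = 0.238), -0.07 with LA (adjusted p = 0.646), 0.11 with NTP over PA (adjusted p = 0.372) and 0.18 with NTP over LA (adjusted p = 0.114).

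Mlxipl encodes ChREBP, the factor through which glucose raises glycolytic and lipogenic genes. Vehicle libraries held 33.89 and 32.63 FPKM, PA libraries 21.95 and 22.33, and LA libraries 19.55 and 18.71. NTP libraries held 52.22 and 42.27 FPKM with PA and 35.91 and 38.81 with LA. All 4 NTP libraries were above both Vehicle libraries, and all 4 FFA libraries were below them. Mlxipl fell with PA by 0.55 ± 0.082 on the log2 scale (adjusted p = 9.87e-05) and with LA by 0.75 ± 0.082 (adjusted p = 1.16e-05), the latter a call at 1.68-fold. NTP raised it 2.05-fold over PA (log2 fold change 1.03 ± 0.082, adjusted p = 7.43e-07) and 1.90-fold over LA (0.92 ± 0.081, adjusted p = 7.37e-07). Mlxipl kept all 4 differences with the GC trend removed, at smaller size. They were -0.26 with PA (adjusted p = 0.020), -0.43 with LA (adjusted p = 0.00192), 0.71 with NTP over PA (adjusted p = 3.4e-05) and 0.51 with NTP over LA (adjusted p = 0.000268), of which only 0.71 still passed the fold threshold. The level of Mlxipl relative to Srebf1, as a ratio of FPKM, was 2.33 and 2.31 in Vehicle, 2.35 and 2.23 with PA, 1.97 and 1.89 with LA, and 2.11 and 2.34 with LA+NTP, but 3.18 and 3.31 with PA+NTP. The PA+NTP group therefore had the highest Mlxipl both in level and relative to Srebf1.

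**Figure D2:**
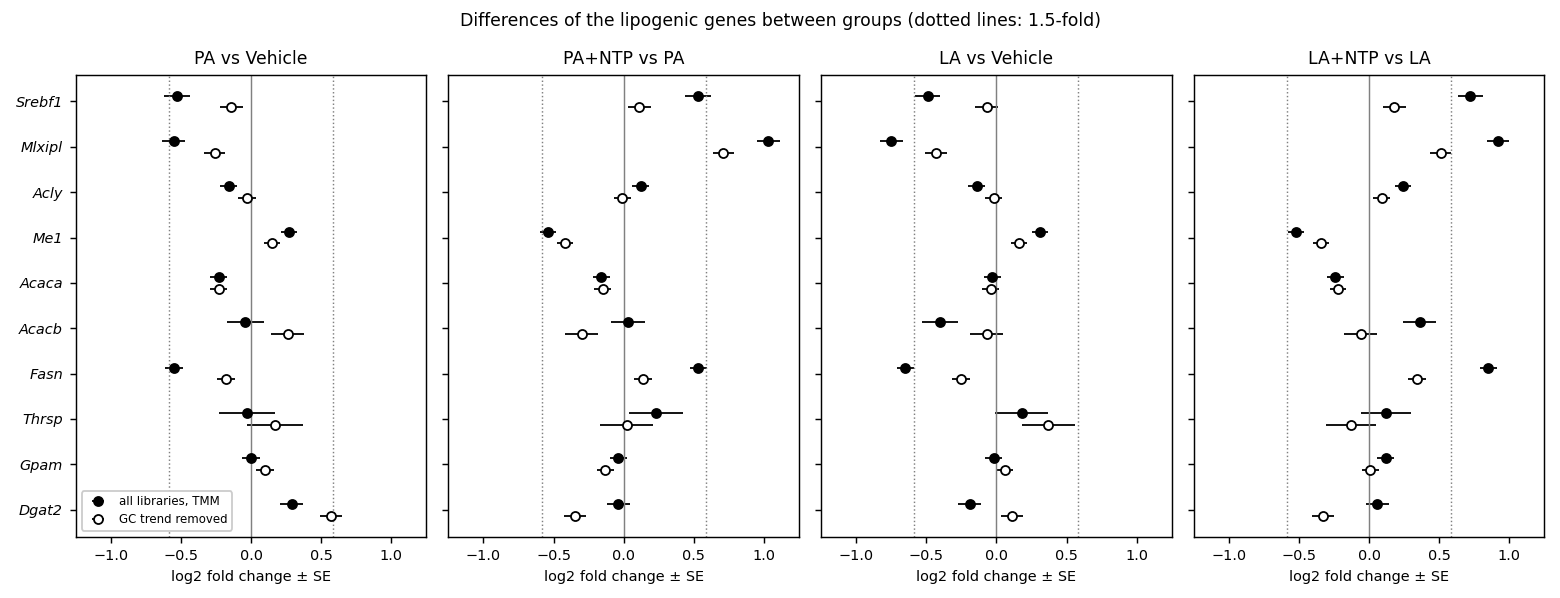
Log2 fold change (horizontal axes) with its SE (bars) of the 10 genes in the 4 comparisons, from all 10 libraries with TMM normalization (filled) and with the GC trend removed (open). Removing the trend brought Srebf1 within 0.18 of 0 in every panel, left Mlxipl at 0.71 and 0.51 with NTP, and moved Dgat2 away from 0 with PA (0.29 to 0.57) and with NTP.

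Acly encodes ATP citrate lyase, which makes cytosolic acetyl-CoA. Its level was 35.45 and 35.72 FPKM in Vehicle, 32.19 and 30.26 with PA, and 31.12 and 31.51 with LA. With NTP it was 34.67 and 35.87 FPKM over PA and 38.88 and 37.42 over LA. The changes were small, although no FFA library overlapped the Vehicle libraries. Acly fell with PA by 0.16 ± 0.059 on the log2 scale (adjusted p = 0.0398), and this fall stayed past the test in 10 of 20 alternatives. It no longer passed without either Vehicle library, PA replicate 2 or either LA+NTP library (log2 fold change from -0.16 to -0.11). The fall was also lost with DESeq2 (adjusted p = 0.0507), without the low-count filter (adjusted p = 0.0523) and with the length trend removed (adjusted p = 0.0849). With LA the log2 fold change was -0.14 ± 0.059 (adjusted p = 0.0699), and with NTP over PA it was 0.12 ± 0.059 (adjusted p = 0.11). NTP raised Acly over LA by 0.24 ± 0.058 (adjusted p = 0.00269), and by 0.09 with the GC trend removed (adjusted p = 0.324, so not passed). In that setting Acly was at -0.03 with PA (adjusted p = 0.782), -0.02 with LA (adjusted p = 0.838) and -0.01 with NTP over PA (adjusted p = 0.942).

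Me1 encodes cytosolic malic enzyme, a source of NADPH for fatty acid synthesis, and it was the only one of the 10 genes that rose with both FFAs and fell with NTP over both. Vehicle libraries held 107.38 and 107.24 FPKM, PA libraries 124.02 and 128.90, and LA libraries 133.32 and 124.66. NTP libraries held 90.38 and 91.04 FPKM with PA and 91.07 and 94.02 with LA. All 4 NTP libraries were below Vehicle, and all 4 FFA libraries were above it. The rise was 0.27 ± 0.057 with PA (log2 fold change, adjusted p = 0.00146) and 0.31 ± 0.057 with LA (adjusted p = 0.000599). NTP lowered Me1 by a log2 fold change of -0.54 ± 0.057 over PA (adjusted p = 6.02e-06) and -0.52 ± 0.057 over LA (adjusted p = 4.41e-06), a 1.45-fold and a 1.43-fold fall. The NTP differences remained past the test with the GC trend removed, at -0.42 (adjusted p = 0.000165) and -0.34 (adjusted p = 0.000712). The FFA differences did not, at 0.15 with PA (adjusted p = 0.0559) and 0.16 with LA (adjusted p = 0.0712). Me1 had the lowest GC content of the 10 genes. The ratio of Me1 to Fasn in FPKM was 10.3 and 10.4 in Vehicle, 18.2 and 18.3 with PA, 20.9 and 19.3 with LA, 8.93 and 8.50 in PA+NTP, and 7.56 and 8.01 with LA+NTP. Like the other FPKM ratios given here, it was not freed of the GC trend. Me1 and Fasn differ in GC content, at 46.2% and 57.9%.

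Fasn encodes fatty acid synthase, the enzyme that makes palmitate. Its level was 10.46 and 10.31 FPKM in Vehicle, 6.83 and 7.04 with PA, and 6.38 and 6.47 with LA. NTP libraries held 10.12 and 10.71 FPKM with PA and 12.04 and 11.74 with LA. The replicates of Fasn lay close together, and all 4 FFA libraries were below the other 6. Fasn fell with PA by 0.55 ± 0.062 on the log2 scale (adjusted p = 9.85e-06) and with LA by 0.65 ± 0.061 (adjusted p = 4.38e-06, a call at 1.57-fold). NTP raised it by 0.53 ± 0.061 over PA (adjusted p = 1.21e-05) and 0.85 ± 0.060 over LA (adjusted p = 1.65e-07, a call at 1.80-fold). Without PA+NTP replicate 1, the rise over PA was 0.59 and also passed the fold threshold. With the GC trend removed, Fasn was at -0.18 with PA (adjusted p = 0.0473), -0.25 with LA (adjusted p = 0.0163) and 0.34 with NTP over LA (adjusted p = 0.00161), none of them past the fold threshold. The rise with NTP over PA was then 0.14 (adjusted p = 0.143).

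Acaca and Acacb encode the acetyl-CoA carboxylases. ACC1, from Acaca, makes the malonyl-CoA that is built into fatty acids, and ACC2, from Acacb, sits at mitochondria, where malonyl-CoA holds back fatty acid import. Acaca stood at 10.49 and 11.15 FPKM in Vehicle, 8.77 and 9.23 with PA, 10.31 and 10.25 with LA, 8.70 and 8.16 in PA+NTP, and 9.06 and 8.90 with LA+NTP. It fell with PA by 0.23 ± 0.061 on the log2 scale (adjusted p = 0.00669), but not past the test without Vehicle replicate 2 (-0.19, adjusted p = 0.0824) or with the trend against transcript length removed (-0.095, adjusted p = 0.223). With LA the Acaca libraries were just under the Vehicle libraries in FPKM, and the log2 fold change was -0.03 ± 0.060 (adjusted p = 0.73). Unlike Fasn, Acaca did not rise with NTP. It fell with NTP over LA by 0.24 ± 0.059 (adjusted p = 0.0041), and over PA the log2 fold change was -0.16 ± 0.061 (adjusted p = 0.0511), which passed with the length trend removed (-0.22, adjusted p = 0.00805). The GC trend hardly touched Acaca, whose values without it were -0.23 with PA (adjusted p = 0.0101), -0.04 with LA (adjusted p = 0.689), -0.15 with NTP over PA (adjusted p = 0.0809) and -0.22 with NTP over LA (adjusted p = 0.0138).

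Acacb was the lowest of the 10 genes, with 207 to 835 expected counts a library. Its level was 1.76 and 1.84 FPKM in Vehicle, 1.83 and 1.62 with PA, 1.30 and 1.35 with LA, 2.01 and 1.61 in PA+NTP, and 1.90 and 1.61 with LA+NTP. The LA libraries were below the other 8. Acacb fell with LA by 0.40 ± 0.13 on the log2 scale (adjusted p = 0.0206) and rose with NTP over LA by 0.36 ± 0.12 (adjusted p = 0.0215). The fall did not pass without any single Vehicle or LA library (-0.42 to -0.36, adjusted p from 0.0595 to 0.114). The rise did not pass without either LA library or LA+NTP replicate 1 (0.25 to 0.38, adjusted p from 0.0663 to 0.186). With the GC trend removed both were near 0, at -0.07 (adjusted p = 0.752) and -0.06 (adjusted p = 0.737), while Acacb was at 0.26 with PA (adjusted p = 0.13) and -0.30 with NTP over PA (adjusted p = 0.0775). The ratio of Acaca to Acacb in FPKM was 5.96 and 6.06 in Vehicle and 7.93 and 7.59 with LA, and it was 4.79 and 5.70 with PA. It was also below Vehicle with NTP, at 4.33 and 5.07 in PA+NTP and 4.77 and 5.53 with LA+NTP.

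Thrsp encodes Spot 14, a small protein that promotes fatty acid synthesis and responds to thyroid hormone. Its libraries held 62 to 295 expected counts, the fewest of the members. The level was 4.32 and 3.78 FPKM in Vehicle, 4.56 and 3.39 with PA, 4.52 and 4.29 with LA, 4.94 and 4.46 in PA+NTP, and 5.11 and 4.75 with LA+NTP. The PA replicates spanned the Vehicle values, and no Thrsp difference passed. Its log2 fold changes were -0.03 ± 0.20 with PA (adjusted p = 0.916), 0.18 ± 0.19 with LA (adjusted p = 0.502), 0.23 ± 0.19 with NTP over PA (adjusted p = 0.368) and 0.12 ± 0.18 with NTP over LA (adjusted p = 0.617). They were 0.17 (adjusted p = 0.561), 0.37 (adjusted p = 0.212), 0.02 (adjusted p = 0.958) and -0.13 (adjusted p = 0.628) with the GC trend removed. The SEs were several times those of Fasn, so smaller differences of Thrsp were not detectable at this depth.

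Gpam encodes the mitochondrial acyltransferase GPAT1, which attaches the first fatty acid to glycerol 3-phosphate, and it was the steadiest of the 10 genes. It stood at 36.39 and 40.39 FPKM in Vehicle, 36.90 and 38.26 with PA, 36.57 and 36.90 with LA, 39.12 and 37.24 in PA+NTP, and 41.62 and 40.40 with LA+NTP. The FFA libraries of Gpam lay inside the Vehicle spread. Its log2 fold change was 0.00 ± 0.061 with PA (adjusted p = 0.981) and -0.02 ± 0.061 with LA (adjusted p = 0.828). With NTP it was -0.04 ± 0.061 over PA (adjusted p = 0.666) and 0.12 ± 0.060 over LA (adjusted p = 0.115). These SEs were about as small as those of Fasn and Me1. Its values were 0.10 (adjusted p = 0.257), 0.06 (adjusted p = 0.546), -0.13 (adjusted p = 0.136) and 0.01 (adjusted p = 0.937) in the same order once the GC trend was removed.

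Dgat2 encodes the diacylglycerol acyltransferase that makes triglyceride, with a preference for newly made fatty acids. Its level was 38.54 and 36.23 FPKM in Vehicle, 45.73 and 43.76 with PA, and 33.54 and 29.69 with LA. NTP libraries held 48.61 and 41.86 FPKM with PA and 35.80 and 32.24 with LA. PA and LA thus stood on opposite sides of Vehicle, and NTP libraries overlapped those of their own FFA. Dgat2 rose with PA by a log2 fold change of 0.29 ± 0.083 (adjusted p = 0.0107), but not past the test without Vehicle replicate 2 (0.24, adjusted p = 0.10) or PA replicate 1 (0.26, adjusted p = 0.063). With LA it was at -0.19 ± 0.083 (adjusted p = 0.0788). Dgat2 did pass there with the replicate block (adjusted p = 0.0151) and without the filter (adjusted p = 0.0269). It also passed with library-size scaling (adjusted p = 0.0369) and with only the groups compared (adjusted p = 0.0383). NTP left it at -0.04 ± 0.082 over PA (adjusted p = 0.723) and 0.06 ± 0.082 over LA (adjusted p = 0.563). Once the GC trend was removed, Dgat2 rose with PA by 0.57 (adjusted p = 0.000153), stood at 0.11 with LA (adjusted p = 0.402), and fell with NTP by 0.35 over PA (adjusted p = 0.00518) and by 0.33 over LA (adjusted p = 0.00692). The ratio of Dgat2 to Gpam in FPKM was 1.06 and 0.897 in Vehicle, 1.24 and 1.14 with PA, and 0.917 and 0.805 with LA. It was 1.24 and 1.12 in PA+NTP and 0.860 and 0.798 with LA+NTP.

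**Figure D3:**
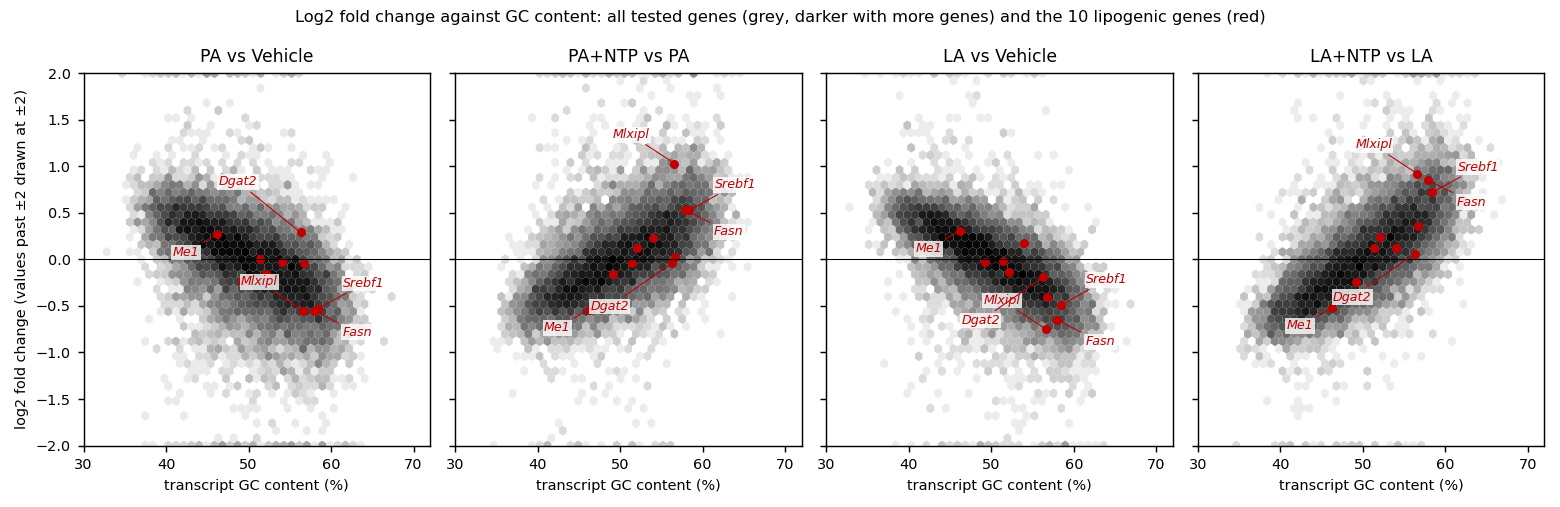
Log2 fold change (vertical axes) against the GC content of the transcript in percent (horizontal axes) for all tested genes with a GC value (grey) and the 10 lipogenic genes (red, 5 of them named) in the 4 comparisons. The cloud fell with GC content under both FFAs and rose with NTP, Srebf1 and Fasn lay inside it, and Mlxipl lay toward its upper side with NTP.

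The direct comparison of each NTP group with Vehicle asked what was left of the FFA difference. With LA+NTP, no member differed from Vehicle at an adjusted p under 0.05, beside 0.284% of all genes, and none was called, beside 0.0922%. Acaca came nearest (-0.27 ± 0.060, adjusted p = 0.0761) and passed in 6 of 20 alternatives, among them the replicate block (adjusted p = 0.0466) and DESeq2 (adjusted p = 0.011). Me1 (-0.21 ± 0.057, adjusted p = 0.12) passed with DESeq2 (adjusted p = 0.017), and Me1, Fasn and Srebf1 passed with only the groups compared, the latter 2 at adjusted p = 0.0409 and 0.0331. With PA+NTP, 3 members differed, beside 10.1% of all genes, and none was called, beside 2.85%. Mlxipl rose above Vehicle by a log2 fold change of 0.48 ± 0.080 (adjusted p = 0.00173), and without PA+NTP replicate 2 this was 0.60 and a call. Acaca fell below Vehicle by 0.39 ± 0.060 (adjusted p = 0.00107), its lowest position in any group. Me1 fell below Vehicle by 0.27 ± 0.057 (adjusted p = 0.00871), but not past the test without either Vehicle library (-0.26 and -0.27, adjusted p = 0.0788 and 0.0734). Dgat2 with PA+NTP did not pass (0.25 ± 0.082, adjusted p = 0.0711), but it did with the replicate block (adjusted p = 0.013). Srebf1 and Fasn with PA+NTP had libraries on both sides of the Vehicle values (adjusted p = 0.999 and 0.879). The GC trend hardly touched the 3 that passed, which were 0.45 for Mlxipl, -0.38 for Acaca and -0.26 for Me1 without it (adjusted p = 0.00167, 0.0012 and 0.0103).

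Dgat2 and Acaca differed between the FFAs at the doses used, 200 μM PA and 12 μM LA. Dgat2 was higher with PA than with LA by a log2 fold change of 0.48 ± 0.083 (adjusted p = 0.00205), and it was 0.46 with the GC trend removed (adjusted p = 0.00218). Acaca was lower with PA than with LA by 0.20 ± 0.061 (adjusted p = 0.0478), a margin that was lost in 17 of 20 alternative settings, among them the fits without any one Vehicle, PA, LA or LA+NTP library (-0.24 to -0.18, adjusted p from 0.0702 to 0.185). Of all genes 11.1% passed in this comparison and 3.23% were called, and no member was called. In the NTP-treated groups, compared directly after the values had been seen, 3 members passed and none was called, beside 14.8% and 3.82% of all genes. Dgat2 was again higher with PA+NTP than with LA+NTP (0.38 ± 0.081, adjusted p = 0.00594). Mlxipl was higher by 0.31 ± 0.078 (adjusted p = 0.0175) and Fasn lower by 0.22 ± 0.059 (adjusted p = 0.0217). Once the GC trend was removed, Dgat2 was at 0.45 (adjusted p = 0.0017) and Mlxipl at 0.38 (adjusted p = 0.00404), but Fasn no longer passed (-0.13, adjusted p = 0.195). Fasn was lost in 8 of 20 alternatives, both limma fits included (adjusted p = 0.106 and 0.108). Single libraries also decided these results. Dgat2 no longer passed without LA+NTP replicate 2 (0.31, adjusted p = 0.084), Mlxipl without PA+NTP replicate 1 (0.18, adjusted p = 0.107) or LA+NTP replicate 1 (0.25, adjusted p = 0.166), and Fasn without PA+NTP replicate 1 (-0.15, adjusted p = 0.143) or either LA+NTP library (-0.21 and -0.24, adjusted p = 0.157 and 0.0788).

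Whether the NTP effect itself differed between the FFAs was tested as an interaction. No member passed or was called, and the share of all genes was 0% for both, since edgeR passed 0 genes at the adjusted threshold (1029 at an unadjusted p under 0.05) and DESeq2 passed 7, none of them a member. The smallest adjusted p of a member was 0.629, for Fasn, whose NTP effect was 0.85 over LA and 0.53 over PA. No member passed with the GC trend removed either, all at an adjusted p of 1.0. The larger NTP effects of Srebf1 and Fasn over LA were therefore not shown to differ from those over PA.

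Other genes of the pathway were read from 6 lists by role, with 57 tested genes that are not among the 10. With PA, 24 of them fell and 13 rose, and with LA, 17 fell and 7 rose. With NTP, 14 fell and 15 rose over PA, and 10 fell and 22 rose over LA. The median log2 fold change of the 57 genes was -0.18, -0.08, 0.06 and 0.17 in that order, while that of all tested genes was within 0.01 of 0. Over all tested genes, 22% fell and 23.5% rose with PA, 20.5% and 20.8% with LA, 23% and 21.7% with NTP over PA, and 25.6% and 25.9% with NTP over LA. After removal of the GC trend, 11 of the 57 genes fell and 8 rose with PA, 4 fell and 8 rose with LA, 14 fell and 5 rose with NTP over PA, and 11 fell and 9 rose with NTP over LA, with medians of -0.01, 0.00, -0.06 and -0.02. In that setting 31.5%, 17.4%, 27.2% and 27.8% of all genes passed in either direction, in the same order. These shares are the background for each list, and the counts of a list are given in both ways.

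Among the genes that control SREBP-1 and ChREBP (15 tested), 7 fell and 2 rose with PA, 5 fell and 2 rose with LA, 4 fell and 4 rose with NTP over PA, and 2 fell and 6 rose with NTP over LA. Without the GC trend, 2 fell and 2 rose with either FFA, 6 fell and 2 rose with NTP over PA, and 4 fell and 1 rose with NTP over LA. Scap, which escorts SREBPs to the site where they are cleaved, fell from 21.4 ± 0.608 FPKM (SD, n = 2) in Vehicle to 13.9 ± 1.3 with PA and 13.2 ± 0.481 with LA, and stood at 23.0 ± 2.13 and 22.7 ± 0.339 with NTP. Nr1h2, which encodes the oxysterol receptor LXRβ, went from 31.6 ± 2.73 to 19.4 ± 0.41 and 18.4 ± 0.205 FPKM, and to 34.0 ± 1.66 and 37.5 ± 0.502 with NTP. Both followed the direction of Srebf1 and are as rich in GC, at 59.1% and 60.6%. With the GC trend removed, the log2 fold change of Nr1h2 was -0.19 with PA (adjusted p = 0.0639), -0.22 with LA (adjusted p = 0.0489), 0.24 with NTP over PA (adjusted p = 0.0211) and 0.32 with NTP over LA (adjusted p = 0.00355). That of Scap was -0.17 (adjusted p = 0.0781), -0.22 (adjusted p = 0.0449), 0.22 (adjusted p = 0.0308) and 0.17 (adjusted p = 0.0736). The 6 AMPK subunit genes, whose kinase phosphorylates and switches off both acetyl-CoA carboxylases, had none called in these 4 comparisons, and 1 fell and 2 rose with each FFA. With NTP, 2 of the 6 fell and 1 rose over either FFA. In the fit without the GC trend, 1 fell with PA, none passed with LA, and 1 rose with NTP over either FFA. mRNA levels of subunits do not measure the activity of the kinase.

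In the list of citrate, acetyl-CoA and NADPH supply (11 tested), 6 fell and 4 rose with PA, 4 fell and 1 rose with LA, 3 fell and 3 rose with NTP over PA, and 2 fell and 4 rose with NTP over LA. Without the GC trend, 2 fell and 3 rose with PA, 1 fell and 3 rose with LA, 4 fell with NTP over PA, and 3 fell and 1 rose with NTP over LA. Of the malonyl-CoA and biotin genes (3 tested), 1 fell with PA and 1 rose with NTP over LA, and none passed in the other 2 comparisons. After removal of the GC trend, 1 fell with PA, 1 rose with LA, and 1 fell with NTP over either FFA.

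The glycerol phosphate pathway (16 of 17 genes tested) held genes that moved both ways, unlike Gpam. With PA 6 fell and 4 rose, with LA 6 fell and 2 rose, with NTP over PA 4 fell and 5 rose, and with NTP over LA 4 fell and 8 rose. Without the GC trend, 2 fell and 3 rose with PA, 1 fell and 2 rose with LA, 3 fell and 1 rose with NTP over PA, and 3 fell and 3 rose with NTP over LA. Gk, glycerol kinase, rose from 6.58 ± 0.0636 FPKM in Vehicle to 11.7 ± 1.46 with PA and 10.2 ± 1.05 with LA, and was 6.44 ± 0.0778 and 5.61 ± 0.276 with NTP. Agpat5, an acyltransferase of the next step, rose from 6.07 ± 0.474 to 10.6 ± 0.339 and 8.98 ± 0.721 FPKM and was 6.61 ± 0.389 and 5.44 ± 0.0707 with NTP. Both are poor in GC (39.9% and 43.0%), and their rises with PA were 0.52 and 0.57 on the log2 scale with the GC trend removed (adjusted p = 0.000721 and 0.000224), under the fold threshold. Agpat1 and Agpat2, of the same step and with 58.0% GC, ran the other way, Agpat2 from 38.5 ± 0.679 FPKM in Vehicle to 26.8 ± 1.18 with PA and 24.2 ± 0.70 with LA and to 41.9 ± 4.77 and 43.0 ± 2.64 with NTP. For Agpat1 the levels were 9.31 ± 0.679, 6.45 ± 0.587, 6.00 ± 0.658, 11.3 ± 0.707 and 11.0 ± 0.17 FPKM in the same order. Neither passed in the fit without the GC trend, with PA (-0.21 for Agpat1, adjusted p = 0.181, and -0.13 for Agpat2, adjusted p = 0.243) or with LA (-0.26, adjusted p = 0.134, and -0.22, adjusted p = 0.0663). With NTP, Agpat1 was then at 0.39 over PA (adjusted p = 0.0167) and 0.35 over LA (adjusted p = 0.0255), and Agpat2 at 0.19 (adjusted p = 0.0838) and 0.27 (adjusted p = 0.019). Gpd1, which makes glycerol 3-phosphate, fell with PA by 0.85 ± 0.073 (adjusted p = 1.12e-06), and by 0.54 with the GC trend removed (adjusted p = 0.000139), which is under the fold threshold. Pnpla3, a lipid droplet protein that SREBP-1 induces, rose with NTP over LA but stood under 0.20 FPKM in every group and did not pass with the GC trend removed (1.14, adjusted p = 0.0849).

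**Figure D4:**
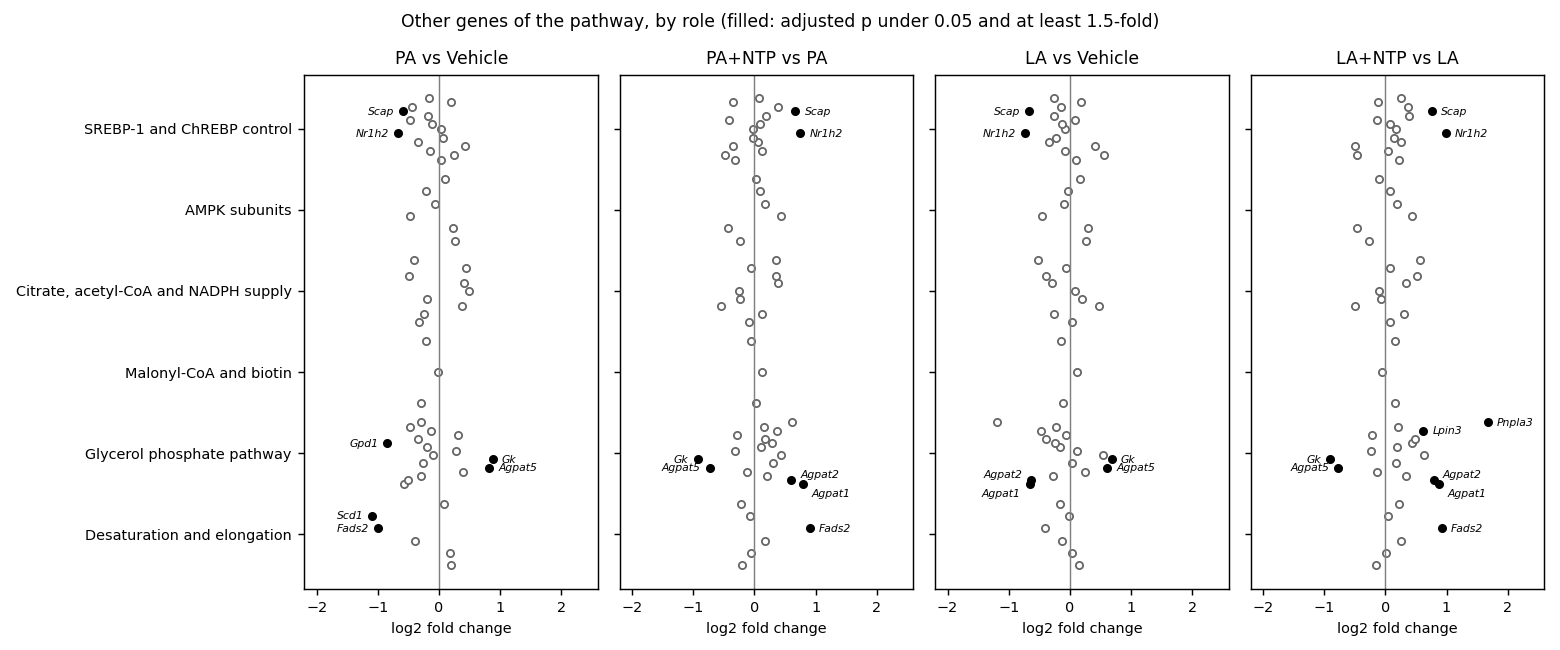
Log2 fold change (horizontal axes) of other pathway genes, grouped by role (rows), in the 4 comparisons, with genes called before the GC trend was removed filled and named. Scap and Nr1h2 fell with the FFAs and rose with NTP, Gk and Agpat5 did the reverse, and Scd1, Fads2 and Gpd1 were called lower with PA and not with LA. After removal of the GC trend, Scd1 with PA and Fads2 with PA and with NTP remained calls, and the other pathway genes named in the text did not.

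Desaturation and elongation (6 tested) had 3 lower and 1 higher gene with PA and 1 lower with LA, and 1 lower and 2 higher with NTP over PA and 2 higher with NTP over LA. Without the GC trend, 3 fell with PA, none passed with LA, 1 rose with NTP over PA and 3 rose with NTP over LA. Scd1, which makes monounsaturated fatty acids and is a known target of SREBP-1, was at 452 ± 10.5 FPKM in Vehicle, 207 ± 7.85 with PA and 205 ± 1.21 with PA+NTP, and at 432 ± 6.17 with LA and 460 ± 11.6 with LA+NTP. The fall with PA was 1.09 ± 0.057 on the log2 scale (adjusted p = 2.25e-08), and NTP did not bring a detectable change (-0.07 ± 0.056, adjusted p = 0.347). In the fit without the GC trend, Scd1 was at -1.17 with PA (adjusted p = 2.36e-08) and 0.17 with NTP over LA (adjusted p = 0.0363). Fads2, the delta-6 desaturase, fell by 1.00 ± 0.081 with PA (adjusted p = 7.41e-07) and by 0.40 ± 0.078 with LA (adjusted p = 0.000898), and rose with NTP by 0.90 ± 0.080 over PA and 0.92 ± 0.077 over LA (adjusted p = 1.67e-06 and 5.36e-07). Removing the GC trend left it at -0.79 with PA (adjusted p = 1.39e-05) and -0.19 with LA (adjusted p = 0.107), and its NTP rises were 0.67 and 0.64 (adjusted p = 6.25e-05 and 6.33e-05). In the direct comparison of the FFAs, Scd1, Gpd1 and Fads2, which were called lower with PA and not with LA, were also lower with PA than with LA, by a log2 fold change of -1.08 ± 0.057 for Scd1 (adjusted p = 1.7e-07), -0.61 ± 0.073 for Gpd1 (adjusted p = 0.000121) and -0.60 ± 0.081 for Fads2 (adjusted p = 0.000335). The same differences ranged from -1.04 to -0.60 with the GC trend removed.

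The patterns most like those of Srebf1 and Fasn were sought among 8300 genes with a mean of at least 5 FPKM, by Pearson's r of log2 library-scaled counts over the 10 libraries. These are descriptions over libraries that share groups and GC trends. Nearest to Srebf1 were Plod1 (0.992), Cul7 (0.988), Grb7 (0.987), Scrn2 (0.986) and Nt5c (0.985), with 56.3% to 60.4% GC. Nearest to Fasn were Emc10 (0.997), Mfge8 (0.996), Pnpla2 (0.994), Pofut2 (0.994) and Map3k11 (0.993), with 57.5% to 61.3% GC. All 10 of these genes were similarly rich in GC, and none was a pathway gene of the lists. Between Srebf1 and Fasn r was 0.938, and Fasn was the 328th nearest gene to Srebf1. Mlxipl had an r of 0.860 with Srebf1 and 0.873 with Fasn, and Me1 had -0.884 and -0.910.

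The cell type label was checked against marker genes. All 8 hepatocyte markers were listed, with a summed level of 6390 to 6620 FPKM in Vehicle, 5140 to 5470 with PA, 6010 to 6870 with PA+NTP, 6260 to 6330 with LA and 7270 to 7620 with LA+NTP. With PA, 4 of the 8 fell, beside 22% of all genes. With NTP, 4 of the 8 rose over PA and 3 over LA, beside 21.7% and 25.9% of all genes. Without the GC trend, 5 fell with PA, and 3 and 2 rose with NTP. Lipogenic genes are also expressed in adipocytes, but of 5 adipocyte markers only Fabp4 was listed (3.82 to 8.91 FPKM), while Adipoq, Plin1, Lep and Retn were listed in no library. All 6 Kupffer cell and macrophage markers were listed, with a summed level of 214 to 215 FPKM in Vehicle, 213 to 249 with PA, 274 to 306 with PA+NTP, 136 to 140 with LA and 190 to 202 with LA+NTP. Such sums follow the markers with the highest levels most. Of these 6, 2 rose with PA, beside 23.5% of all genes. With LA, 1 fell and 1 rose, beside 20.5% and 20.8%, and 1 rose with NTP over either FFA. Without the GC trend, 2 rose with PA, 1 fell with LA and 1 rose with NTP over LA. All 6 stellate cell markers summed to 6.43 to 6.56 FPKM in Vehicle, 4.36 to 4.72 with PA, 6.20 to 6.44 with PA+NTP, 5.19 to 5.57 with LA and 7.48 to 7.95 with LA+NTP. The 4 cholangiocyte markers (11.0 to 13.0 in Vehicle, 7.68 to 8.10 with PA, 12.4 to 13.0 with PA+NTP, 9.67 to 9.98 with LA, 14.5 to 14.6 with LA+NTP) were likewise lowest with PA and highest with LA+NTP, and the 5 endothelial markers summed to 21.1 to 21.3 FPKM in Vehicle, 16.1 to 16.5 with PA, 15.6 to 17.5 with PA+NTP, 18.2 to 18.9 with LA and 21.6 to 21.9 with LA+NTP. By gene, 4 of 6 stellate, 2 of 3 tested cholangiocyte and 3 of 5 endothelial markers fell with PA. With LA, 1 of each fell. Over all genes, 22% and 20.5% fell. With NTP, 3, 1 and 0 of them rose over PA, and 2, 1 and 2 over LA. Without the GC trend, 3, 1 and 3 fell with PA, and 0, 1 and 0 with LA. In that fit 0, 1 and 0 rose with NTP over PA, and 0, 1 and 1 over LA. The part of these shifts in the member differences was not tested, and in bulk samples fewer cells of a type and less RNA per cell cannot be told apart.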

How the data were processed

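RNA sequencing of primary hepatocytes was analysed in 10 libraries, grouped by the sample labels. Per the labels and the study's methods, HISAT and Bowtie2 were used for alignment (mm10) and RSEM for quantification. Expected counts, as deposited, are the RSEM estimate for each gene and carry no normalization between libraries. The deposited FPKM values were scaled by the authors for length and library size, and tables list genes from 0.01 FPKM. Their versions are not given in sources used here. NCBI gene IDs were matched to RefSeq symbols (17998 of 18055 by ID). Expected counts were rounded and fitted with edgeR 4.0.16 in R 4.3.3 (5 groups as 1 factor, TMM factors 0.977 to 1.037, filterByExpr, common biological coefficient of variation 0.0682, quasi-likelihood F test). The study's NOISeq test was not used here. The 1.5-fold threshold follows the study's methods. The GC alternative removed a loess trend (span 0.4) over the 13930 tested genes with a GC value. GC content came from GENCODE M21 transcripts. The pipeline was tested on simulated data. All 10 members were named, and of the other pathway genes those called in the FFA or NTP comparisons, up to 6 a list, except 2 genes that are in the counts but not reported here by name. Members and lists were chosen with earlier results of these data known. The comparison of PA+NTP with LA+NTP was added after the values were seen. Further alternatives were DESeq2 1.42.0, limma 3.58.1 on log2(FPKM + 1) and log2(FPKM + 0.1), library-size scaling, no filter, no fold threshold, a length trend, only the groups compared, a replicate block and leaving out each library.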

Additional observations from a re-analysis of the deposited data

Results flagged for a closer look

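The effects of the FFAs against Vehicle differed by a direct test for 2 of the 10 genes, beside 11.1% of all genes. Dgat2 was higher with PA than with LA by a log2 fold change of 0.48 ± 0.083 (SE, edgeR adjusted p = 0.00205), with levels of 45.73 and 43.76 FPKM against 33.54 and 29.69. Acaca was lower by -0.20 ± 0.061 (adjusted p = 0.0478), with 8.77 and 9.23 against 10.31 and 10.25 FPKM. This Acaca result still passed in only 3 of 20 alternatives. The groups with NTP also differed by FFA for 3 genes, beside 14.8% of all genes, in a comparison chosen after the data were seen. PA+NTP exceeded LA+NTP for Dgat2 (0.38 ± 0.081, adjusted p = 0.00594) and Mlxipl (0.31 ± 0.078, adjusted p = 0.0175), and was lower for Fasn (-0.22 ± 0.059, adjusted p = 0.0217), the last no longer past the test with the GC trend removed (-0.13, adjusted p = 0.195) and in 8 of 20 alternatives in all. Dgat2 and Mlxipl did not pass in every fit without a single library, where they went down to 0.30 and 0.18. The doses of the FFAs were not matched, so FFA and dose cannot be told apart.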

How the results depend on the processing

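The FFA and NTP results of Srebf1, Mlxipl and Fasn depended above all on the GC trend. Of 6 called member differences, only Mlxipl with NTP over PA stayed a call under all 20 alternatives (log2 fold change from 0.71 to 1.15). The other 5 lost the fold threshold only with the GC trend removed, alone or with the replicate block. Among them, Srebf1 with NTP over LA then lost the test as well (0.181, adjusted p = 0.114, and with the block 0.183, adjusted p = 0.0891). Without the GC trend, and also with the block, LA had 0 called members instead of 2, and NTP over LA had 0 instead of 3. Without a fold threshold, the counts were 7 with PA, 5 with LA, 4 with NTP over PA, 7 with NTP over LA, 3 for PA+NTP and Vehicle, 2 for PA and LA, and 3 for PA+NTP and LA+NTP. Library-size scaling called 1 member with PA (Mlxipl) and 2 with NTP over PA. Leaving out single libraries gave 1 to 2 called members with NTP over PA and 0 to 1 for PA+NTP against Vehicle.

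The replicate number as a block called the same numbers of members, among them 3 with NTP over LA and 2 with LA. Same-numbered deviations correlated at -0.069 to 0.127 over the 10 pairs of groups. This does not settle whether the numbers pair the libraries. Dgat2 and Thrsp were higher in replicate 1 than in replicate 2 of every group. The block lowered the SE with PA from 0.083 to 0.060 for Dgat2. For Thrsp it went from 0.20 to 0.19, and for Fasn from 0.062 to 0.061. A group left with 1 library took its spread from the remaining groups.

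In the FFA and NTP comparisons, a sign turned in 48 cases over 14 member differences, of which only that of Acacb with NTP over LA had passed the test. In the other comparisons, signs turned only for member differences that had not passed. With the GC trend removed (and with the block as well), log2 fold changes turned to -0.063 (-0.061) for Acacb with NTP over LA, 0.258 (0.26) with PA and -0.304 (-0.314) with NTP over PA. In the same settings Acly with NTP over PA was -0.008 (-0.008), Dgat2 was 0.108 (0.103) with LA and -0.33 (-0.327) with NTP over LA, Gpam with LA was 0.062 (0.062), and Thrsp was -0.135 (-0.126) with NTP over LA and 0.169 (0.174) with PA. With the length trend removed, Acaca with LA was 0.017, Acacb 0.082 with PA and -0.031 with NTP over PA, Dgat2 with NTP over LA -0.009, and Thrsp -0.028 with NTP over LA and 0.022 with PA. Library-size scaling gave 0.018 for Dgat2 and 0.022 for Gpam with NTP over PA, and -0.031 for Gpam with PA. In limma on log2(FPKM + 1) and log2(FPKM + 0.1) these were 0.012 and 0.012, 0.022 and 0.023, and -0.028 and -0.029. Gpam with PA was -0.004 without the filter and -0.008 with only the groups compared. The cause was not tested.

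Leaving out single libraries turned signs for Acaca with LA (-0.07 to 0.014), Acacb with PA (-0.12 to 0.06) and with NTP over PA (-0.112 to 0.151), Dgat2 with NTP over LA (-0.03 to 0.15) and over PA (-0.129 to 0.035), Gpam with LA (-0.089 to 0.057) and PA (-0.067 to 0.078), and Thrsp with PA (-0.218 to 0.217) and NTP over PA (-0.027 to 0.409). DESeq2 turned no sign in these comparisons. Depth limits Thrsp and Acacb most, with at least 62 and 207 expected counts a library.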
